A study of Rattus norvegicus with 145 samples.

Results

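Livers of 25 male rats given 0, 300, 500, 750 or 1000 mg/kg/day (mkd) acetamide for 7 days and killed on day 8 are described here, out of 145 rats in the series. They are all the rats of the male day 8 count table with these doses on their labels, 5 per group. The series was made to learn how acetamide, a small amide found in foods that causes liver tumors in chronically dosed rats, acts on the rat liver and at which doses. Acetamide was given by daily oral gavage in a water vehicle, and the left lobe was collected for RNA-Seq of polyadenylated RNA with a stranded library kit. The rats were Crl:WI (Wistar) animals aged 8 to 10 weeks, and the study's methods add that they came from Charles River, were fasted overnight and were killed in a randomized order 24 h after the last dose. The 0 mkd rats received water alone. The same table holds 5 rats at 1500 mkd, which shared the estimate of the spread in the fits of each dose but entered no comparison below unless named.

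In the adult liver most hepatocytes rest outside the cell cycle and divide only on a stimulus. Entry into the cycle switches on genes of DNA synthesis (S phase) under the E2F transcription factors, followed by genes of chromosome segregation (G2/M phase) under complexes that bind CCAAT boxes and so-called CHR elements. Xenobiotics can also raise the thioesterase and oxidation genes of the fatty acid receptor PPARα, the detoxification genes of NRF2 and of the receptors AhR, CAR and PXR, or the damage response genes of p53, and each of these programs was therefore described as a list of genes.

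The libraries held 16405929 to 36751373 reads assigned to genes, and the medians of the 5 groups lay between 23222122 and 30042635. Of 17337 genes in the table, 11304 passed the filter on low counts for the comparisons of each dose and 11242 for the dose trend. The 10 hepatocyte markers, such as albumin, summed to 206200 to 344200 CPM, that is reads scaled to a common library size, in every one of the 25 rats, as a liver label requires. Markers of B cells and neutrophils were low, with sums of at most 2.52 and 8.90 CPM. Reads of low mapping quality made up over 30% of all reads in 4 libraries, those of control rats 4 (34.3%) and 5 (31.2%) and of rats 2 (46.7%) and 3 (33.0%) at 300 mkd. By the study's methods the rats shared cages, but nothing on the labels says which rats shared a cage or a preparation day. Cages could therefore not enter the fits. The p-values measure the spread between these rats as if each were independent. In bulk liver RNA more cells of a kind and more RNA per cell cannot be told apart.

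The gene with the smallest p in the dose trend was Tk1, thymidine kinase 1, the S phase enzyme that salvages thymidine for DNA synthesis. It was the only gene of 11242 (0.0089%) differentially expressed in the linear trend over 0 to 1000 mkd, where it rose by 1.01 on the log2 scale (SE 0.17, edgeR adjusted p = 0.0322). The next 3 in the order of p, among genes with a mean of at least 1 CPM, were Fen1, E2f1 and Ercc6l. They also serve DNA synthesis and division. To show what can be read in front of cell cycle genes, the sequence from 250 bases before to 50 bases after the transcription start is printed for the 3 of these 4 genes with an entry in the promoter table and for one gene each of the S phase and G2/M lists described below, from RefSeq on the GRCr8 assembly and 5′ to 3′ on the strand of the gene. They are Tk1 (chr10:103544728-103545027, minus strand), Fen1 (chr1:216274347-216274646, minus strand), Ercc6l (chrX:71301137-71301436, minus strand), the S phase gene Mcm5 (chr19:13488563-13488862, plus strand) and the mitosis gene Cdc20 (chr5:137255750-137256049, minus strand). Mcm5 and Cdc20 were chosen because they hold the motifs. Capitals mark the letters of 3 motifs searched on both strands.
Tk1: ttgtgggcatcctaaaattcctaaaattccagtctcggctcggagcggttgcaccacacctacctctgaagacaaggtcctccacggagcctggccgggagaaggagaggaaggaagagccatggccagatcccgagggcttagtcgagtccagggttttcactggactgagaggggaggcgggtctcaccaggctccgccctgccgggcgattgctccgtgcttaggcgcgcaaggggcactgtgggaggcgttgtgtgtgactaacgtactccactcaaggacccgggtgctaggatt
Fen1: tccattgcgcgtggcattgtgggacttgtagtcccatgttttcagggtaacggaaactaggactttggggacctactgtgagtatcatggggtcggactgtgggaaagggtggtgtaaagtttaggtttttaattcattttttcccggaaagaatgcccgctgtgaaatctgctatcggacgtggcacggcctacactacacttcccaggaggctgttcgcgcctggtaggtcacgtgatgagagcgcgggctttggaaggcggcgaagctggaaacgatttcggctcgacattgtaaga
Ercc6l: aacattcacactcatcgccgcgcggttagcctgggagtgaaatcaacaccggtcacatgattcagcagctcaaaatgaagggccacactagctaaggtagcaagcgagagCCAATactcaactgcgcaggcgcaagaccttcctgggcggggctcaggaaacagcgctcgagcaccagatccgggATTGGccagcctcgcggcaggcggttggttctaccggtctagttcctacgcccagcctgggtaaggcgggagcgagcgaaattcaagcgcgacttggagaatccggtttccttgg
Mcm5: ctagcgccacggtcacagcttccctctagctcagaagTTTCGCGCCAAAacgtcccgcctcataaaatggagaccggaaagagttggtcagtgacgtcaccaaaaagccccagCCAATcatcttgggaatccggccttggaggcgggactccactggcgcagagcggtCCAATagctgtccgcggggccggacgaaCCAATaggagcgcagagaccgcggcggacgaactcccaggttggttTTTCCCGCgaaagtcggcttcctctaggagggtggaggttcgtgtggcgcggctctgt
Cdc20: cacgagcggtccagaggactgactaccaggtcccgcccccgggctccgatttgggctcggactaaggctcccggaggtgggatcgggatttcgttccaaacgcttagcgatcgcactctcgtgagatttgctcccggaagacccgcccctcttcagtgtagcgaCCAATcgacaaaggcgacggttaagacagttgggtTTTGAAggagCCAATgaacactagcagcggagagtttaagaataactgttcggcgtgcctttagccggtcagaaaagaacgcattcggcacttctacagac

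The first motif was a set of 4 E2F words, TTTCCCGC, TTTGGCGC, TTTCGCGC and TTTGCCGC, the second was CCAAT, and the third was the CHR words TTTGAA and TTCGAA. The Mcm5 window held 3 E2F words, of which a pair on opposite strands overlap, and 3 CCAAT boxes. The Ercc6l window held 2 CCAAT boxes and neither of the other motifs, and the Cdc20 window held 2 CCAAT boxes and 1 CHR word. None of these letters is in the Tk1 and Fen1 windows, which says nothing about the factors themselves, and E2f1 and Tpx2 had no entry in the promoter table. Among the S phase list, 28 of 37 tested genes had an entry and 14 of these (50.0%) held an E2F word, against 2.25% of all 27457 promoters and 3.97% of the 8543 promoters of tested genes. In the G2/M list, 29 of 41 promoters (70.7%) held a CHR word and 30 (73.2%) a CCAAT box. These were in 19.5% and 37.7% of all promoters and in 13.5% and 38.2% of those of tested genes. The CCAAT box was also frequent in the S phase list, in 17 of 28 promoters (60.7%), where 6 (21.4%) held a CHR word. A match is a description of the letters, not a measured site.

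The control rats had Tk1 at 4.54, 7.48, 7.78, 6.72 and 9.01 CPM. At 300 mkd the 5 rats had 10.1, 8.70, 7.46, 7.47 and 7.00 CPM, and at 500 mkd 8.84, 9.29, 11.4, 9.20 and 14.6 CPM. At 750 mkd they had 10.5, 16.8, 12.8, 11.8 and 12.6 CPM, and at 1000 mkd 15.0, 10.5, 9.15, 18.0 and 15.0 CPM. Every rat at 750 and 1000 mkd lay above every control rat, 4 of 5 did so at 500 mkd and 1 of 5 at 300 mkd. Against the control, the log2 fold changes were 0.20 (SE 0.21), 0.58 (SE 0.20), 0.86 (SE 0.20) and 0.93 (SE 0.20) in the order of the doses. At a single dose Tk1 did not pass, with adjusted p of 0.435 at 750 and 0.338 at 1000 mkd (edgeR). The trend call was close to its threshold and did not hold in most fits that left out 1 rat. The fitted change stayed between 0.93 and 1.10 in these 25 fits. In 14 of them Tk1 was no longer called, with adjusted p up to 0.138 (edgeR). The rats left out there, one by one, were controls 1 to 4 and rats 2 to 5 at 300 mkd. The others were rats 3 to 5 at 750 and rats 1, 4 and 5 at 1000 mkd. At 1500 mkd, outside the trend, Tk1 averaged 14.0 ± 3.71 CPM (SD, n = 5), close to the 13.5 ± 3.62 CPM at 1000 mkd.

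**Figure D1:**
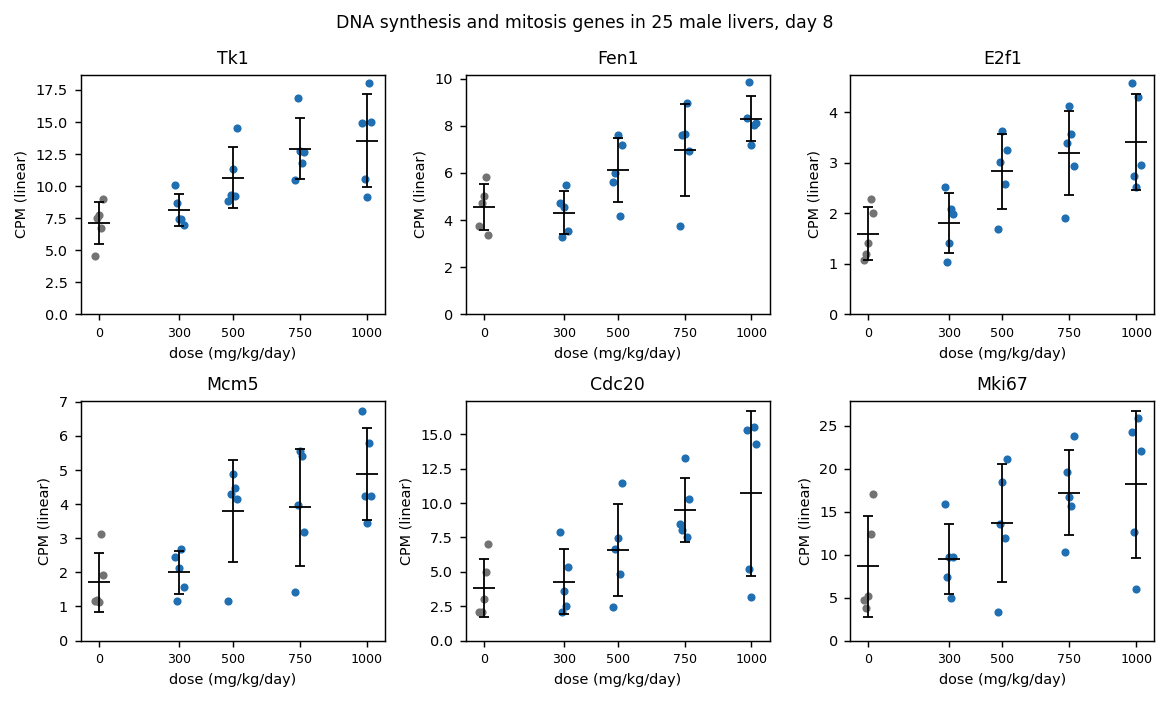
Level of Tk1, Fen1, E2f1, Mcm5, Cdc20 and Mki67 in each of 25 male livers on day 8, in CPM on a linear axis, against dose in mg/kg/day. Dots are rats (grey for the vehicle control, blue for acetamide), dashes are group means and bars are SDs (n = 5); every Fen1 value at 1000 mkd lies above the highest control value of 5.84 CPM, while the Cdc20 values at 1000 mkd run from 3.19 to 15.5 CPM.

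Fen1, the flap endonuclease that trims Okazaki fragments, stood next with a trend of 0.95 on the log2 scale (SE 0.18, adjusted p = 0.0713), which passed only relaxed criteria of a 1.4-fold change and an adjusted p of 0.1. The control rats had 3.76, 4.74, 5.04, 5.84 and 3.38 CPM of Fen1. The 300 mkd rats had 4.72, 3.29, 4.56, 5.51 and 3.52 CPM and lay among the controls. At 500 mkd the values were 5.61, 6.01, 7.59, 4.16 and 7.17 CPM and at 750 mkd 3.76, 7.60, 7.67, 8.98 and 6.92 CPM. All rats of the 1000 mkd group were higher, with 8.33, 9.85, 7.20, 8.03 and 8.13 CPM. The groups did not overlap at 1000 mkd alone, and rat 1 at 750 mkd remained at a control level. The relaxed criteria took in 2 genes in all (0.0178%), Tk1 and Fen1.

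E2f1, the E2F factor that opens S phase, ran from 1.08 to 2.29 CPM in the controls. At 1000 mkd it stood at 4.57, 2.74, 2.52, 4.31 and 2.96 CPM, all above the controls, and at 750 mkd at 1.91 to 4.13 CPM with 4 of 5 rats above them. Its trend was 1.20 (SE 0.24, adjusted p = 0.102) and did not pass. Ercc6l, a helicase that works on chromatin bridges in mitosis, had a trend of 1.33 (SE 0.27, adjusted p = 0.102), with 4 of 5 rats above every control at both 750 and 1000 mkd. The aldo-keto reductase Akr7a3 is an NRF2 target that detoxifies aflatoxin aldehydes. It completed the 5 genes with the smallest trend p of those with higher levels and a mean of at least 1 CPM. Akr7a3 ran from 41.4 to 80.5 CPM in controls, from 31.8 to 58.1 CPM at 300 mkd, from 76.3 to 172 CPM at 750 mkd and from 81.1 to 219 CPM at 1000 mkd, with a trend of 1.32 (SE 0.27, adjusted p = 0.102). Its lowest rat at 1000 mkd lay just above its highest control.

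No gene was down-regulated in the trend by the criteria used. Among genes with a mean of at least 1 CPM, the 5 with the smallest p in that direction were Slc43a3, Gucy1b3, Ppp1r12a, Atp13a5 and Fam55b. Slc43a3 is a purine base transporter, and Gucy1b3 is a subunit of the nitric oxide receptor guanylate cyclase. Ppp1r12a is the targeting subunit of myosin phosphatase, and Atp13a5 is a P-type ATPase. Slc43a3 stood at 35.6, 43.5, 45.5, 40.0 and 36.9 CPM in controls, at 23.8 to 33.5 CPM at 750 mkd and at 24.8, 29.7, 23.8, 29.8 and 34.0 CPM at 1000 mkd. All 15 rats at 500, 750 and 1000 mkd lay below every control for Slc43a3, by a trend of -0.53 (SE 0.12, adjusted p = 0.123). Gucy1b3 had a trend of -0.79 (SE 0.19, adjusted p = 0.133), with control values of 7.22 to 11.9 CPM and 4.04 to 6.69 CPM at 750 mkd. At 1500 mkd Gucy1b3 averaged 9.38 ± 2.63 CPM, beside 9.27 ± 1.87 CPM in controls, so its levels did not keep the order of the doses. Ppp1r12a had a trend of -0.41 (adjusted p = 0.133), and Atp13a5 and Fam55b had trends of -0.81 and -0.54 (adjusted p = 0.164 for both).

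The S phase list (37 genes tested) and the G2/M list (46 genes tested) are the human lists that come with a widely used single-cell package, matched to rat symbols, and hold neither Tk1 nor E2f1. In the dose trend 28 of 37 S phase genes and 43 of 46 G2/M genes had slopes above 0, beside 5382 of 11242 genes (47.9%) in all. Their median trends were 0.34 and 0.87 on the log2 scale, and the median of all genes was -0.01. An unadjusted p under 0.05 with a higher level was reached by 14 S phase genes (37.8%) and 34 G2/M genes (73.9%), beside 614 genes in all (5.46%; 9.61% with both directions), and with a lower level by none of either list, beside 466 (4.15%). No member of either list passed the adjusted criteria.

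By dose, the median log2 fold change of the G2/M list was 0.05 at 300, 0.35 at 500, 0.74 at 750 and 0.75 at 1000 mkd, and it was 1.33 at 1500 mkd. For the S phase list the medians were 0.03, 0.17, 0.20 and 0.33 over the same 4 doses, and 0.41 at 1500 mkd. Of the 83 genes of both lists, 1, 9, 28 and 41 had an unadjusted p under 0.05 with a higher level at 300, 500, 750 and 1000 mkd, beside 71, 209, 494 and 355 of all 11304 genes (0.628, 1.85, 4.37 and 3.14%). The group mean was higher at each step from 0 through 300, 500 and 750 to 1000 mkd for 17 of 46 G2/M genes (37.0%) and 7 of 37 S phase genes (18.9%), beside 274 of all genes (2.44%).

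The mean log2 CPM over the G2/M list shows how the rats of a group differed. The controls had means of 1.16, 1.22, 1.54, 1.99 and 2.44, and the 1000 mkd rats 2.65, 2.26, 1.52, 2.97 and 2.71. At 750 mkd the 5 rats were close together, at 2.16 to 2.57. The highest control, rat 5, lay above rats 2 and 3 at 1000 mkd, and rat 3 at 1000 mkd lay among the lower controls, so that the groups overlapped. The group means were 1.67 ± 0.54, 1.78 ± 0.46, 2.04 ± 0.52, 2.42 ± 0.15 and 2.42 ± 0.56 (SD, n = 5) from 0 to 1000 mkd. For the S phase list they were 1.80 ± 0.25, 1.82 ± 0.11, 2.00 ± 0.25, 2.11 ± 0.25 and 2.23 ± 0.17.

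**Figure D2:**
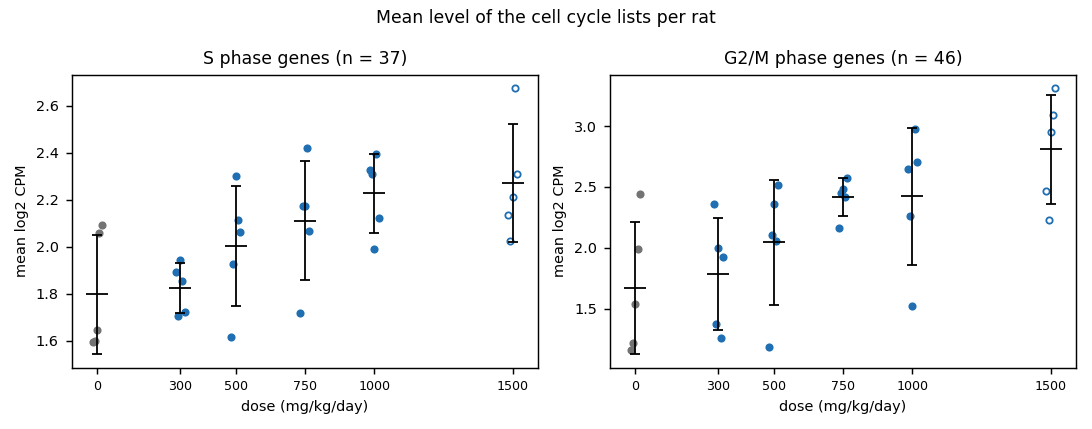
Mean log2 CPM over the 37 S phase genes (left) and the 46 G2/M genes (right) in each male liver on day 8 against dose in mg/kg/day. Dots are rats (grey control, blue acetamide, open circles for 1500 mkd, which is outside the trend), dashes are means and bars are SDs (n = 5); the G2/M values of controls run from 1.16 to 2.44 and those at 1000 mkd from 1.52 to 2.97.

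Control rats 4 and 5, which had the highest means of both lists among the controls, were also the 2 control libraries with over 30% of reads of low mapping quality. Without the 4 such libraries the median trend of the G2/M list was 1.27, with 38 of 46 genes at an unadjusted p under 0.05 and a higher level, and that of the S phase list was 0.45, with 20 of 37, beside 486 of 11405 genes in all (4.26%). Leaving out 1 rat at a time gave medians of 0.77 to 1.20 for the G2/M list and 0.28 to 0.40 for the S phase list. The number of genes called in the trend over all genes was less steady: it was 26 without control rat 5, 32 without rat 3 at 1000 mkd, 2 without rat 1 at 750 mkd and at most 1 without any other rat. With the 4 libraries of low mapping quality left out it was 3 (Asf1b, Ercc6l and Pbk), and Tk1 then had an adjusted p of 0.0593. DESeq2 called 51 of 11242 genes in the trend, 46 of them higher. Of the 51, 13 were on the cell cycle lists, which hold 83 of the 11242 genes tested. Tk1, Fen1, E2f1, Ercc6l and Mcm5 had the 5 smallest p in DESeq2.

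Among S phase genes, Mcm5, a subunit of the replicative helicase, stood at 1.15, 1.20, 1.14, 3.13 and 1.92 CPM in controls. At 500 mkd it stood at 1.15, 4.30, 4.88, 4.48 and 4.16 CPM and at 1000 mkd at 6.74, 4.23, 3.44, 5.81 and 4.23 CPM. All rats at 1000 mkd and 4 of 5 at 500 and 750 mkd exceeded every control, and rat 1 at 500 mkd stayed at a control level. The Mcm5 trend was 1.59 (SE 0.34, adjusted p = 0.105). Uhrf1, which keeps DNA methylation through replication, and Cdca7, which helps chromatin remodelling for DNA methylation, were likewise above every control in 5 of 5 rats at 1000 mkd, with trends of 1.52 and 1.00 and adjusted p of 0.133 for both.

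Of the G2/M genes, Cdc20, the activator of the anaphase promoting complex, had control values of 2.05, 2.08, 3.00, 4.95 and 7.01 CPM. At 750 mkd it had 8.47, 8.03, 13.2, 7.56 and 10.3 CPM, all above the controls. At 1000 mkd it had 15.3, 5.22, 3.19, 15.5 and 14.3 CPM, so that rats 2 and 3 lay within the control range. Its trend was 1.66 (SE 0.39, adjusted p = 0.133). Tpx2, a spindle assembly factor, Cdca8, a part of the chromosomal passenger complex, and Tacc3, which binds spindle microtubules, had trends of 1.12, 0.95 and 0.68 with adjusted p of 0.133, 0.158 and 0.158. For each of them, 4 of 5 rats lay above every control at 1000 mkd, and the remaining rat was rat 3.

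Mki67 encodes Ki-67, the nuclear protein that is stained to count cycling cells. The controls had 4.69, 3.77, 5.24, 12.4 and 17.1 CPM of Mki67, and their SD of 5.85 CPM lay within the 4.05 to 8.54 CPM of the treated groups. At 750 mkd the rats had 10.3, 19.7, 16.7, 15.6 and 23.8 CPM and at 1000 mkd 24.2, 12.7, 5.96, 25.9 and 22.1 CPM. The log2 fold change was 1.01 (SE 0.45) at 750 and 1.09 (SE 0.45) at 1000 mkd, with adjusted p of 0.640 and 0.972, and the trend was 1.20 (SE 0.39, adjusted p = 0.287). The groups overlapped at every dose.

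Each dose was then compared with the vehicle control on its own. With a |fold change| of at least 1.5 and an adjusted p of at most 0.05, edgeR called 0 of 11304 genes (0.0%) in each of the 4 comparisons, and the relaxed criteria also gave 0 at each. An unadjusted p under 0.05 was reached by 159 genes at 300 mkd (1.41%) and 375 at 500 mkd (3.32%). It was reached by 865 genes at 750 mkd (7.65%) and 531 at 1000 mkd (4.7%). Lower levels made up 88, 166, 371 and 176 of these genes (0.778, 1.47, 3.28 and 1.56% of all tested). A log2 fold change above 0 was found in 50.4% of all genes at 300, 50.8% at 500, 51.0% at 750 and 49.8% at 1000 mkd. The smallest adjusted p was 1 at the 2 lower doses, 0.435 at 750 and 0.338 at 1000 mkd. DESeq2 called 0, 1, 0 and 0 genes, the 1 being Ugt2b, lower at 500 mkd. The median SE of a log2 fold change was 0.18 at 300 and 500 mkd.

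**Figure D3:**
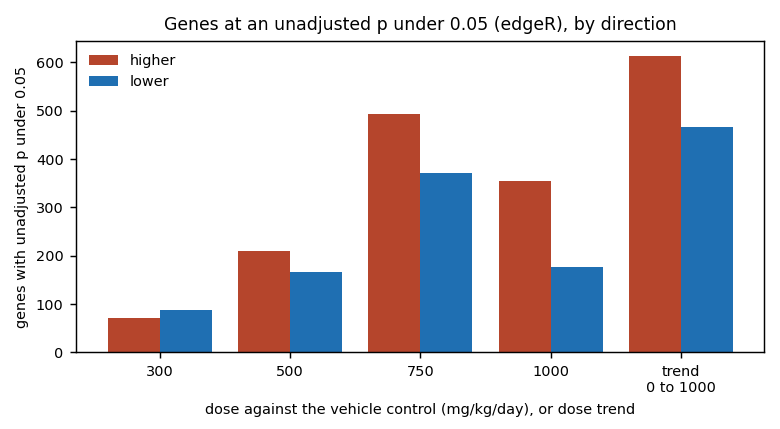
Number of genes with an unadjusted p under 0.05 (edgeR) with higher (red) or lower (blue) levels, for each dose against the vehicle control among 11304 genes and for the dose trend among 11242. The bars start at 0 and show 865 genes in all at 750 mkd, 531 at 1000 mkd and 1080 in the trend.

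The count of genes whose 5 treated rats all lay above all 5 controls was 15 (0.133%), 27 (0.239%), 91 (0.805%) and 52 (0.46%) in the order of the doses. With all 5 rats below the controls there were 14, 29, 55 and 33 genes (0.124, 0.257, 0.487 and 0.292%). Of the 83 genes on the S phase and G2/M lists, 3 were among the 91 and 5 among the 52. None was among the 15 or the 27. The lists hold neither Tk1, which was among the 91 and the 52, nor E2f1, which was among the 52.

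At 300 mkd, the genes with the smallest p among those without overlap were the sulfotransferase Sult2a6, the carboxylesterase Ces2a and the G protein subunit Gnb5 on the higher side. Sult2a6, which sulfates hydroxysteroids and bile acids and has near-identical family members that could share its reads, stood at 102, 85.7, 57.5, 61.3 and 104 CPM in controls. At 300 mkd it stood at 192, 291, 218, 139 and 345 CPM, every rat above every control, by a log2 fold change of 1.53 (SE 0.44, unadjusted p = 0.00184, adjusted p = 1.00). At 500, 750 and 1000 mkd its means were back at 75.0, 64.2 and 61.3 CPM, beside 82.1 CPM in controls. Its low-level relative Sult2a2 had the same order, with 0.41 CPM in controls, 1.03 CPM at 300 mkd and 0.22 to 0.38 CPM at the higher doses, and had the smallest p of any difference among the 5 groups (adjusted p = 0.0895).

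On the lower side at 300 mkd stood Lrtm2, a leucine-rich repeat membrane protein, the B cell chemokine Cxcl13, and Gdpd1, a lysophospholipase D. Lrtm2 ran from 0.45 to 2.60 CPM at 300 mkd and from 3.36 to 23.6 CPM in controls, with a log2 fold change of -2.42 (SE 0.59). At 750 mkd Lrtm2 averaged 10.5 ± 1.31 CPM, beside 9.19 ± 8.48 CPM in controls, and thus had no order by dose. Cxcl13 and Gdpd1 had log2 fold changes of -1.29 (SE 0.42) and -0.38 (SE 0.14) at 300 mkd.

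The same rule named for 500 mkd Psap, the precursor of the saposins that activate lysosomal hydrolases, Wdr34, a dynein intermediate chain, and Hacl1, which cleaves 2-hydroxy fatty acids in peroxisomes. Hacl1 stood at 532 to 956 CPM at 500 mkd and 252 to 500 CPM in controls, with a log2 fold change of 0.77 (SE 0.23), and 0.15 and 0.44 at 750 and 1000 mkd. The lower genes at 500 mkd were the peptide hormone gene Adm2, Disp1, which releases hedgehog ligands (-0.92, SE 0.23), and the deubiquitinase Otub2 (-0.61, SE 0.17). Adm2 ran from 1.23 to 2.59 CPM in controls and from 0.24 to 1.17 CPM at 500 mkd. For Disp1 the log2 fold changes at 750 and 1000 mkd were -0.13 and 0.23. The adjusted p was 1.00 for all 6 genes at 500 mkd.

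For 750 mkd the rule named Tmem98, a membrane protein, Acot1 and Tk1 on the higher side and Myzap, Gucy1b3 and Steap4, a metalloreductase, on the lower. Tmem98 ran from 45.9 to 58.1 CPM at 750 mkd and from 33.5 to 42.3 CPM in controls, by 0.47 on the log2 scale (SE 0.11, adjusted p = 0.435). Steap4 ran from 27.3 to 40.5 CPM at 750 mkd and from 43.8 to 67.7 CPM in controls (-0.67, SE 0.18). At 1500 mkd Steap4 averaged 65.9 ± 10.7 CPM, beside 54.1 ± 12.2 CPM in controls. For 1000 mkd the rule named Fen1, Tk1 and E2f1 on the higher side and Slc43a3, the caveolin gene Cav2 and LOC500035 on the lower. Cav2 stood at 25.3, 26.0, 29.1, 27.7 and 25.4 CPM in controls and at 14.0, 15.5, 10.5, 20.6 and 12.6 CPM at 1000 mkd, that is -0.87 on the log2 scale (SE 0.27, adjusted p = 0.825). Rat 1 at 500 and rat 1 at 750 mkd kept Cav2 at 31.0 and 28.5 CPM, within or above the control range, while the other rats of these groups lay at 9.29 to 17.9 CPM.

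The doses were also compared among themselves. Between 1000 and 300 mkd edgeR called 0 of 11304 genes (0.0%), with 654 at an unadjusted p under 0.05 (5.79%), of which 421 were higher (3.72%) and 233 lower (2.06%) at 1000 mkd. The relaxed criteria took in 1 gene (0.00885%), Akr7a3. Akr7a3 was higher at 1000 than at 300 mkd by 1.49 on the log2 scale (SE 0.27, adjusted p = 0.0935), and without rat 3 at 1000 mkd it passed the full criteria as the only gene. DESeq2 called 4 genes here, Akr7a3, Bcl6, Fen1 and Sult2a6. Of the 83 cell cycle genes, 32 were higher at 1000 than at 300 mkd at an unadjusted p under 0.05 and none lower, beside 3.72 and 2.06% of all genes. A test of any difference among the 5 groups called 0 of 11242 genes (0.0%) in edgeR, with 446 at an unadjusted p under 0.05 (3.97%), and 19 in DESeq2. The smallest adjusted p of this test, 0.0895, was shared by Sult2a2, Akr1b7 and Srxn1, and 1 gene passed without rat 1 at 300 mkd (Akr1b7), rat 4 at 500 mkd (Sult2a6) or rat 2 at 1000 mkd (Sult2a2). Akr1b7, an aldose reductase-like enzyme, had 201 CPM in rat 3 at 300 mkd, while the other 24 rats had at most 11.7 CPM.

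The acyl-CoA thioesterases, which split acyl-CoA into free fatty acid and coenzyme A and are induced through PPARα, held 8 of 10 genes with slopes above 0, and 5 with an unadjusted p under 0.05, all higher, beside 47.9% of all genes with slopes above 0 and 5.46% with such a p and a higher level. Acot1, the cytosolic long-chain enzyme, stood at 1.34, 0.74, 1.90, 0.61 and 1.08 CPM in controls. At 750 mkd it stood at 6.27, 6.23, 3.67, 13.6 and 14.1 CPM, all above the controls, and at 1000 mkd at 3.41, 16.9, 0.87, 3.42 and 4.85 CPM, where rat 3 lay among the controls. The log2 fold changes of Acot1 were 0.96, 1.99, 2.94 and 2.36 from 300 to 1000 mkd, and its trend was 2.77 (SE 0.64, adjusted p = 0.129). Without the 1000 mkd group Acot1 was the only gene called in the trend. Acot2, Acot3 and Acot4 had trends of 0.70, 0.61 and 0.53 with adjusted p of 0.358, 0.442 and 0.442, and because the 4 genes are close copies, reads could be split between them.

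The other PPARα and fatty acid oxidation genes had a median trend of 0.03, with 20 of 36 slopes above 0. The fatty acid transporter Slc27a2 had a trend of -0.38 (SE 0.11, adjusted p = 0.214) and the lipase inhibitor Angptl4 one of 0.60 (SE 0.22, adjusted p = 0.369). The medians of the lipid synthesis lists were -0.08 for cholesterol synthesis (9 of 25 slopes above 0) and -0.17 for fatty acid synthesis (3 of 18 above 0). Of the 4 doses, the median for cholesterol synthesis was lowest at 500 mkd, where the median log2 fold change was -0.38 and 8 of 25 genes had an unadjusted p under 0.05, all lower, beside 1.47% of all genes. At 1000 mkd the median was -0.08 and 1 gene had such a p with a lower level, beside 1.56% of all genes. Msmo1, a sterol methyl oxidase, averaged 48.2 ± 19.3 CPM in controls, 27.6 ± 8.74 CPM at 500 mkd and 45.5 ± 15.7 CPM at 1000 mkd. Hsd17b7, of the later sterol steps, averaged 6.25 ± 1.26 CPM in controls, 4.12 ± 1.54 CPM at 500 mkd and 4.13 ± 0.95 CPM at 1000 mkd. Acly, which makes cytosolic acetyl-CoA for both pathways, averaged 117 ± 30.9 CPM in controls and 67.6 ± 7.14 CPM at 500 mkd, with a log2 fold change of -0.79 (unadjusted p = 0.00247) there and of -0.53 at 1000 mkd.

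**Figure D4:**
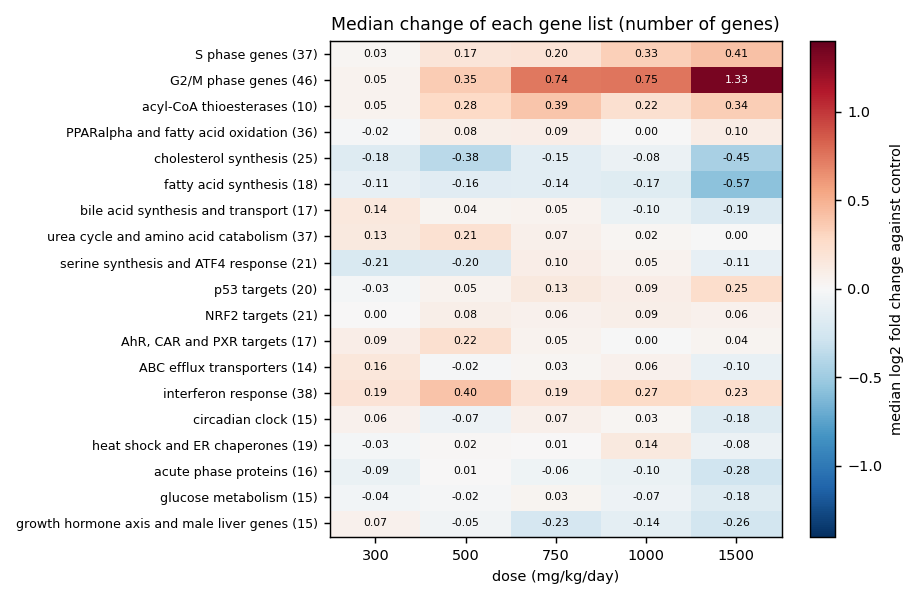
Median log2 fold change against the vehicle control of each gene list (rows, with the number of genes) at each dose (columns, mg/kg/day); 1500 mkd is shown beside the 4 doses described. Red is higher and blue lower, and the number in each cell is the median, which for the G2/M list goes from 0.05 at 300 to 0.75 at 1000 mkd and for the S phase list from 0.03 to 0.33.

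The NRF2 target list, made of genes for glutathione, the pentose phosphate path and quinone reduction, held 12 of 21 slopes above 0 (47.9% of all genes). It had 5 genes with an unadjusted p under 0.05 and a higher level and 1 with a lower level, beside 5.46% and 4.15% of all genes. The 5 included Akr7a3, the sulfiredoxin Srxn1 (trend 0.52, SE 0.13, adjusted p = 0.133), the pentose phosphate enzyme Taldo1 (0.42, SE 0.11, adjusted p = 0.155) and the glutathione transferase Gstm1 (0.44, SE 0.12, adjusted p = 0.182). Taldo1 stood at 53.3 to 70.3 CPM in controls and at 72.5 to 88.8 CPM at 1000 mkd, without overlap. The trends of the list ran from -1.74 to 1.32 on the log2 scale. Akr1b8, an aldo-keto reductase that the study discusses, had a trend of -1.74 (adjusted p = 0.323, edgeR). Nqo1, the list's best known member, was at 3.21 to 4.17 CPM in 4 controls and 16.4 CPM in control rat 1, and at 4.63 to 6.30 CPM at 1000 mkd, with a trend of -0.07 (SE 0.33). The glutathione transferase Gstp1 had means of 4.66 ± 1.03 CPM in controls and 4.58 ± 0.44 CPM at 1000 mkd.

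Of the p53 target list, 16 of 20 slopes were above 0 and 6 genes had an unadjusted p under 0.05, all higher, beside 47.9% and 5.46% of all genes. The median trend of the list was 0.13. Phlda3, an inhibitor of Akt signalling, stood at 20.1, 13.4, 14.5, 18.9 and 12.7 CPM in controls and at 20.2, 23.4, 22.4, 30.1 and 24.8 CPM at 750 mkd. At 1000 mkd it stood at 21.4, 26.6, 15.5, 19.8 and 25.4 CPM, where 3 of 5 rats exceeded the controls. Its trend was 0.63 (SE 0.16, adjusted p = 0.133). The pro-apoptotic gene Bax had 8.12 to 10.0 CPM at 1000 mkd and 6.63 to 7.81 CPM in controls, without overlap, and a trend of 0.34 (adjusted p = 0.399).

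The ATF4 and serine synthesis list had a median trend of 0.10, with 13 of 21 slopes above 0. Atf3 of this list, an early stress factor, stood far higher in a single liver: rat 1 at 750 mkd had 159 CPM, and the other 24 rats had 0.88 to 12.4 CPM. The same rat had the highest value of the stress hormone Gdf15, 10.6 CPM, beside 1.08 to 2.20 CPM in controls. Rat 1 at 750 mkd was also the lowest of its group for Tk1, Fen1, E2f1 and Mcm5. Phgdh, the first enzyme of serine synthesis, had a trend of -0.22 (SE 0.44, adjusted p = 0.881).

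Abcb1b, a P-glycoprotein efflux pump, had control values of 1.60, 1.51, 1.54, 8.50 and 3.88 CPM. At 1000 mkd it had 10.4, 36.6, 1.85, 8.84 and 15.8 CPM, with 4 of 5 rats above every control, rat 4 only narrowly and rat 3 among them. The Abcb1b trend was 2.26 (SE 0.56, adjusted p = 0.133), and its close copy Abcb1a, with which it could share reads, had a trend of -0.30 (SE 0.26). In the list of 14 efflux transporters Abcb1b was the only gene with an unadjusted p under 0.05 in the trend, which 9.61% of all genes reached. The AhR, CAR and PXR targets had a median trend of -0.02, with 8 of 17 slopes above 0. Cyp1a1 and Cyp2b1, the classical targets of AhR and of CAR, had trends of 0.73 (SE 0.59) and -0.36 (SE 0.62), and Cyp1a2 one of 0.48 (SE 0.21, adjusted p = 0.479).

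Bcl6, a transcriptional repressor that takes part in the sex-specific liver program under growth hormone, had 18.1, 11.0, 20.2, 19.5 and 10.3 CPM in controls. At 1000 mkd it had 20.9, 40.1, 94.2, 27.7 and 68.1 CPM, every rat above every control, and at 750 mkd 65.0, 23.2, 58.8, 15.7 and 75.8 CPM. The trend was 2.00 (SE 0.43, adjusted p = 0.105). At 1500 mkd the 5 rats had only 12.8 to 21.5 CPM, within the range of the controls but for 1 rat. The growth hormone list, with Bcl6 in it, held 4 of 15 slopes above 0 and had a median trend of -0.28. Prlr, the prolactin receptor, stood at 31.8 to 180 CPM at 300 mkd, at 1.20 to 44.1 CPM in controls and at 12.2 to 25.1 CPM at 1000 mkd.

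The interferon list held 29 of 38 slopes above 0 and a median trend of 0.21, with 9 genes at an unadjusted p under 0.05 and a higher level and 1 with a lower one. Of all genes, 47.9% had slopes above 0, 5.46% such a p with a higher level and 4.15% with a lower one. Rsad2, an antiviral enzyme, had 2.34 to 6.59 CPM in controls and 10.2, 27.2, 4.58, 8.46 and 7.49 CPM at 1000 mkd (trend 1.42, SE 0.34, adjusted p = 0.133). Cmpk2, Oasl and Mx2 had trends of 0.73, 1.08 and 1.12 with adjusted p of 0.273, 0.273 and 0.298. Ifit1, another antiviral gene, had a trend of 0.93 (adjusted p = 0.833) and no order by dose. It was at 8.76 CPM or more in 9 of the 25 livers and at 0.32 CPM or less in the other 16. The 9 were 1 control, 3 rats at 300, 2 at 500, 0 at 750 and 3 at 1000 mkd, and 0 of 5 rats at 1500 mkd were among the high ones.

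The remaining lists had median trends of -0.00 for the urea cycle and amino acid catabolism (18 of 37 slopes above 0), 0.03 for the circadian clock (8 of 15), 0.08 for chaperones (12 of 19), -0.05 for glucose metabolism (6 of 15), -0.11 for bile acid genes (5 of 17) and -0.11 for acute phase proteins (3 of 16). Among genes chosen because the study discusses them, values close to 0 were found for the steroid hydroxylase Cyp17a1 (trend -0.19, SE 0.34), the arginine transporter Slc7a1 (0.11, SE 0.39) and the carbonic anhydrase Car3 (-0.14, SE 0.37), although an interval of 2 SE around each of these 3 trends still holds a change of 1.4-fold. The leptin receptor Lepr had a trend of -1.11 (SE 0.32, adjusted p = 0.214), with 49.1, 11.5, 14.1, 19.5 and 22.8 CPM in the controls and 5.07 to 17.4 CPM at 1000 mkd, where 2 of 5 rats lay below every control. Over 30 alternatives its trend ran from -1.28 to -0.82, the latter without control rat 1. Mybl2, a cell cycle transcription factor, had a trend of 1.64 (SE 0.54, adjusted p = 0.287). The study's text names neither Lepr nor Mybl2.

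Markers of other liver cells were followed because their share could move with a result. In the trend 5 of 13 macrophage, 2 of 8 T and NK cell, 0 of 3 B cell, 4 of 5 cholangiocyte, 2 of 8 stellate and 2 of 6 endothelial markers had slopes above 0. The summed macrophage level was 1248 to 2008 CPM in controls and 1123 to 2127 CPM at 1000 mkd, and the summed T and NK cell level 30.2 to 57.3 and 25.8 to 68.3 CPM, so that the groups overlapped in both. Their part in the cell cycle result was not tested. A clock phase score ran from -4.57 to 5.2 in controls and from -5.44 to 4.88 at 1000 mkd. With this score as a covariate, added after seeing the data, Tk1 had an adjusted p of 0.0295, beside 0.0322 without it (edgeR). A part of the clock in the trend was not tested.

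To place the males of day 8 at 1000 mkd beside the most similar groups, the change against the own control was compared by interaction tests with females of day 8, males of day 29 and the males of the earlier dose range finding experiment A on day 8, each with its own 5 controls. Experiment A used Wistar rats of another supplier, so that experiment and supplier cannot be told apart, and the day 29 control males are labelled as animals of experiment A, which by the study's methods had no day 29. The interaction test called 0 genes in each case in edgeR (0.0%). At an unadjusted p under 0.05 there were 602 genes for females (5.33%), 1656 for day 29 (14.8%) and 2486 for experiment A (21.9%), with smallest adjusted p of 0.729, 0.121 and 0.0605. DESeq2 called 7, 82 and 643 genes. The comparison with experiment A was close to the threshold, with 722 genes at an adjusted p up to 0.1, and gave 688 called genes without rat 2 at 1000 mkd, 3 without control rat 1, and 799 with all dose groups in the fit.

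The median absolute log2 fold change over all genes was 0.12 in males of day 8 in all 3 fits and 0.17 in females of day 8, 0.24 in males of day 29 and 0.33 in experiment A. For the G2/M list the median was 0.75 here and 1.61 in females, 0.74 here and 1.04 on day 29, and 0.74 here and 1.57 in experiment A, each pair from the same fit. Tk1 had 0.93 here and 1.51 in females, with a difference of -0.57 (SE 0.46, adjusted p = 0.922). Against day 29 and experiment A the Tk1 differences were -0.23 (SE 0.33) and -0.42 (SE 0.35), and intervals of 2 SE around all 3 differences include 0.

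The interferon list showed the widest gap, with a median of 0.26 here and 2.91 in experiment A, and 31 of 38 genes had an unadjusted p under 0.05 for a smaller change here, beside 1498 of 11376 genes. Rsad2 had a log2 fold change of 1.39 here and 6.82 in experiment A, a difference of -5.42 (SE 1.11, adjusted p = 0.0605), and Phlda3 had 0.44 and 1.79, a difference of -1.35 (SE 0.34, adjusted p = 0.0649). Of the markers of other cell types, those of T and NK cells had medians of -0.13 here and 1.44 in experiment A, and those of macrophages -0.22 and 0.79. The neutrophil markers had -0.86 and -1.74 (3 genes), the B cell markers -0.52 and -0.23 (3 genes) and the erythroid markers 0.10 and -1.57 (6 genes). The endothelial markers had -0.06 and 0.57, the stellate cell markers -0.16 and 0.29 and the cholangiocyte markers 0.03 and 0.22. In females the T and NK cell and macrophage lists had 0.59 and 0.37, and on day 29 0.67 and 0.53. Their part in these differences was not tested. Cholesterol synthesis had medians of -0.09 here and -1.03 in experiment A, with 16 of 25 genes at an unadjusted p under 0.05 for a less negative change here, and PPARα and fatty acid oxidation had -0.01 and -0.72, with 16 of 36, beside 988 of all 11376 genes with such a p and a higher change here. Bcl6 went the other way: its 1.66 to 1.67 here stood beside -0.32 in females, -1.02 on day 29 and -0.11 in experiment A, with adjusted p of the differences of 0.729, 0.214 and 0.179.

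**Figure D5:**
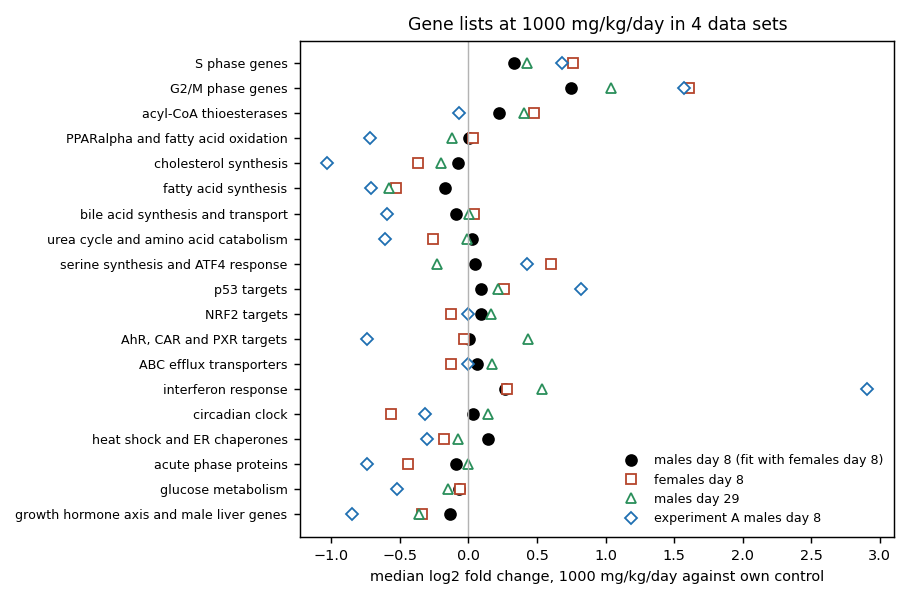
Median log2 fold change of each gene list at 1000 mg/kg/day against the own vehicle control, in males of day 8 (black dots), females of day 8 (squares), males of day 29 (triangles) and experiment A males of day 8 (diamonds), 5 treated and 5 control rats each. The black dots come from the fit with females of day 8. The interferon list lies at 2.91 in experiment A and between 0.27 and 0.54 in the other groups.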

How the data were processed

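RNA-Seq of liver from 25 male rats on day 8 was analysed, with 5 further rats at 1500 mkd in the fits of each dose and 10 rats of each of 3 other data sets at 0 and 1000 mkd in the interaction tests. The authors deposited raw counts of reads per gene, whole numbers that are not normalized, in 5 tables, one for each experiment, sex and time. Per the submitters' processing notes and the study's methods, reads were trimmed with Trimmomatic, aligned to the Rn6 build with Bowtie2 and counted with HTSeq; versions are not given in the sources used here. HTSeq's summary lines, which name no gene, held 39.1 to 67.1% of all reads per library and entered neither the library sizes nor any test.

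From these counts, edgeR 4.0.16 (R 4.3.3, limma 3.58.1) quasi-likelihood tests were run after filterByExpr and TMM scaling (factors 0.858 to 1.19), with Benjamini-Hochberg adjustment over all genes tested. Genes with a |fold change| of 1.5 or more were called when the adjusted p was at most 0.05, the criteria of the study, and by relaxed criteria at 1.4 and 0.1. The trend was a linear term in dose, given as the fitted log2 fold change over 0 to 1000 mkd, and each SE is the absolute log2 fold change divided by the square root of F. The common biological coefficient of variation was 0.237. CPM use TMM-scaled library sizes, and list means use log2 CPM with a prior count of 2. The groups follow the labels, rat numbers are the labels' replicate numbers, and depth limits the precision of low genes by counting error.

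The members and gene lists were chosen with earlier results of these data known. Named genes are the 5 with the smallest trend p each way among genes with a mean of at least 1 CPM. Up to 4 genes of each list by trend p were named as well. For each dose the named genes are the 3 each way with the smallest p, a mean of at least 1 CPM and no overlap with controls. A fixed set was added, most of which the study discusses, though its text does not name Abcb1b, Adgrg2, Lepr, Mybl2 or Phgdh. A few others were named after their values were seen. Alternatives were DESeq2 1.42.0, other scaling, filters (none, or 10 counts), dose scales and groups, a replicate block, and each rat left out. Leaving out 4 libraries with over 30% of reads of low mapping quality and a clock score as a covariate were added after seeing the data. RefSeq symbols or synonyms matched 16946 of 17337 genes, and promoters come from RefSeq on GRCr8, which is not the build of the counts, with no coordinate carried over. No column of the authors' own comparisons was used.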

Additional observations from a re-analysis of the deposited data

Results flagged for a closer look

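Within each dose group of 5 rats, the highest and the lowest value were compared with the rest by Dixon's ratio at its 95% critical value of 0.71. Chance marks about 1 in 20 groups, and 19 of 310 groups (6.13%) were marked. Rat 3 at 1000 mkd was set apart below its group for Ercc6l (0.822 CPM), Mybl2 (0.154 CPM), Phgdh (2.83 CPM) and the mean log2 CPM of the p53 targets (3.73), and it was also the lowest of its group for the G2/M list. In the controls, rat 2 stood above its group for Ifit1 (23.2 CPM), and rat 1 stood above it for Nqo1 (16.4 CPM) and below it for Car3 (373 CPM, beside 1136 to 1680 CPM in the other controls). Rat 1 at 750 mkd had the lowest mean log2 CPM of the S and G2/M genes together (1.97) and the highest of the acute phase proteins (10.9) in its group.

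The remaining single values above their group were Hebp2 in rat 1 at 1000 mkd (2.84 CPM), Rnd1 in rat 2 at 1000 mkd (4.30 CPM) and Cyp2b1 in rat 2 at 500 mkd (52.1 CPM), and Phgdh in rat 5 at 300 mkd lay below it (0.695 CPM). By mean log2 CPM of a list, the other marked rats were rat 2 at 750 mkd for the acyl-CoA thioesterases (lowest, 4.44), rat 2 at 300 mkd for the AhR, CAR and PXR targets (highest, 6.60), rat 1 at 500 mkd for the efflux transporters (lowest, 4.71), rat 1 at 300 mkd for the T and NK cell markers (lowest, 0.835), and for the cholangiocyte markers rat 2 at 500 mkd (highest, 1.35) and rat 5 at 1000 mkd (lowest, 0.684).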

How the results depend on the processing

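With 5 rats per group and the spread found here, the counts of calls depend on single rats and on the tool. For each dose against the control, every alternative run with edgeR gave 0 calls, and DESeq2 gave 1 gene at 500 mkd (Ugt2b). The smallest adjusted p in edgeR came near the threshold at 1000 mkd without the libraries of low mapping quality. It was 0.05 after rounding there, beside 0.338 in the main fit. For 1000 against 300 mkd DESeq2 gave 4, and leaving out 1 rat gave 0 to 1 (1 without rat 3 at 1000 mkd). For any difference among the groups DESeq2 gave 19, and leaving out 1 rat gave 0 to 1 (1 without rat 1 at 300, rat 4 at 500 or rat 2 at 1000 mkd).

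For the dose trend, with 1 gene called, DESeq2 size factors, no filter and a minimum of 10 counts each gave 1 gene. The relaxed criteria and the rank of the dose gave 2, log2 of dose plus 100 mkd gave 0, leaving out the controls gave 0, DESeq2 gave 51 and adding the 1500 mkd group gave 156, of which 141 were higher. Leaving out the libraries of low mapping quality gave 3 and the clock score as a covariate gave 2, both chosen after seeing the data. Leaving out 1 rat gave 0 to 32: 32 without rat 3 at 1000 mkd, 26 without control rat 5, 2 without rat 1 at 750 mkd, and 0 in 14 of 25 fits (controls 1 to 4, rats 2 to 5 at 300, rats 3 to 5 at 750, rats 1, 4 and 5 at 1000 mkd). The adjusted p of Tk1 ranged from 0.00529 to 0.138 over the edgeR fits that left out 1 rat. It was 9.88e-05 in DESeq2 and 0.382 in edgeR without the control group. The cause was not tested.

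Rats with the same number in different groups did not deviate together (50 pairs, median r of their deviations -0.01, 3 of 25 rats nearest to their own number). The replicate block gave 0 genes in the trend, with Tk1 at an adjusted p of 0.0759, and is not read as a paired design.

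For the differences in response at 1000 mkd DESeq2 gave 7 (females), 82 (day 29) and 643 (experiment A). All dose groups in the fit gave 799 for experiment A. Leaving out 1 male of day 8 in experiment B gave 0 to 688 there (688 without rat 2 at 1000 mkd, 3 without control rat 1, 0 in the other 8 fits). The rats of the other data sets were not left out. Of 2250 alternatives of 87 single gene results, 2194 stayed on their side of the threshold. Of the others, 16 of Tk1 lost the call, 40 gained one and 0 changed direction. Only the Tk1 trend was called in the main fit, so the other results that stayed remained uncalled. This tally left out the filters, dose scales and dose groups. There Tk1 lost the call with log2 of dose plus 100 mkd (adjusted p = 0.137, edgeR). Tk1 also lost it without the control group (0.382) or the 1000 mkd group (0.13). Tk1 kept it with no filter, at least 10 counts, the rank of the dose or all 6 groups.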

Other observations

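Some values fall outside the comparisons. Zfp438, a zinc finger gene, had the smallest p at 1000 mkd (unadjusted p = 4.55e-05, edgeR), and Slc16a11, a monocarboxylate transporter family member, had it at 300 mkd (0.000126). Both were named for their p alone. The clock phase score, built from circadian genes, overlapped between all groups and ran from -4.61 to 4.66 at 300 mkd, -4.54 to 3.92 at 500 mkd and -3.39 to 5.15 at 750 mkd. The neutrophil markers had a median trend of -0.86 over 3 genes and the B cell markers one of -0.60 over 3 genes, none with an unadjusted p under 0.05, and both sums were below 10 CPM in every rat.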
